A study of Mus musculus with 16 samples.

Results

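The genes examined here write, erase and read DNA methylation. There were 9 of them, chosen by name: the DNA methyltransferases Dnmt1, Dnmt3a and Dnmt3b, the methylcytosine dioxygenases Tet1, Tet2 and Tet3, the DNA glycosylase Tdg, and the methyl-CpG-binding proteins Mbd1 and Mbd2. All 9 were found among the 23179 genes of the expression table, and all 9 were among the 21218 genes that passed the filter on low values and were tested.

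Total RNA of mammary adipose tissue contralateral to an E0771 tumor was profiled by RNA-Seq in female wild-type C57BL/6N mice (C57BL/6NCrl in the methods of the study), with 4 libraries per group and each library from a different mouse. CON-LFD mice stayed on the low-fat control diet throughout. DIO mice were first made obese on a diet with 60% of its energy as fat and then remained on it (DIO-HFD), were given the low-fat diet freely (DIO-LFD), or underwent vertical sleeve gastrectomy, an excision of much of the stomach, together with the low-fat diet (DIO-VSG). CON-LFD, DIO-HFD and DIO-LFD mice were sham-operated. Mice of all 4 groups were 8 weeks old on arrival and received E0771 cells, a transplantable mammary tumor line, in fat pad 4 at 22 weeks after the first randomization. Fat pad 9, on the opposite side, was collected at the end point, so a tumor-free group is not part of the comparison.

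In mammals most DNA methylation sits on the cytosine of CpG dinucleotides. Dnmt1 copies the pattern onto the new strand after replication, while Dnmt3a and Dnmt3b add methyl groups to unmethylated sites. Tet enzymes oxidize 5-methylcytosine, Tdg excises the later oxidation products so that base excision repair can restore an unmodified cytosine, and Mbd proteins bind methylated CpG and recruit repressors, Mbd2 as a subunit of the NuRD complex.

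Each library held between 46907377 and 57610899 reads. Libraries differed in the markers of lymphocytes: the summed level of 21 B cell markers lay between 1272 and 8254 normalized counts in CON-LFD replicates 2 and 4 and DIO-HFD replicates 2 and 3, and between 30718 and 162946 in the other 12. Of the B cell markers, Cd79a ranged from 39.2 normalized counts in CON-LFD replicate 2 to 15257 in DIO-HFD replicate 1. The adipocyte markers Adipoq, Fabp4 and Plin1 and the epithelial markers Epcam and Krt8 were present in every library. In bulk tissue, fewer cells of a type and less RNA per cell cannot be told apart.

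The first question was how strongly each gene was expressed. Levels of different genes were compared as normalized counts per kilobase of exon, with all annotated exons of a gene joined. Mbd2 had the highest level, 1633 ± 148 per kb (SD, n = 16 libraries), and was followed by the maintenance methyltransferase Dnmt1 at 635 ± 123. Tet3 (410.3 ± 56.4), Mbd1 (367 ± 61.1) and Tdg (325 ± 28.4) came next, and their ranges over the libraries overlapped. Dnmt3a (250.1 ± 30.0) and Tet2 (249 ± 25.2) did not differ beyond their spread. Dnmt3b (52.8 ± 8.40) and Tet1 (27.1 ± 8.79) were lowest. The highest Dnmt3b library, at 68.5 per kb, stayed below the lowest library of Dnmt3a (203 per kb) and of Tet2 (209 per kb). Mbd2 in its lowest library (1411 per kb) likewise stood above Dnmt1 in its highest (883 per kb), whereas Dnmt1 and Tet3, and Dnmt3b and Tet1, overlapped. The levels per kb are set by the joined exon length, which was 16.6 kb for Dnmt3a and 5.11 kb for Dnmt3b.

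**Figure D1:**
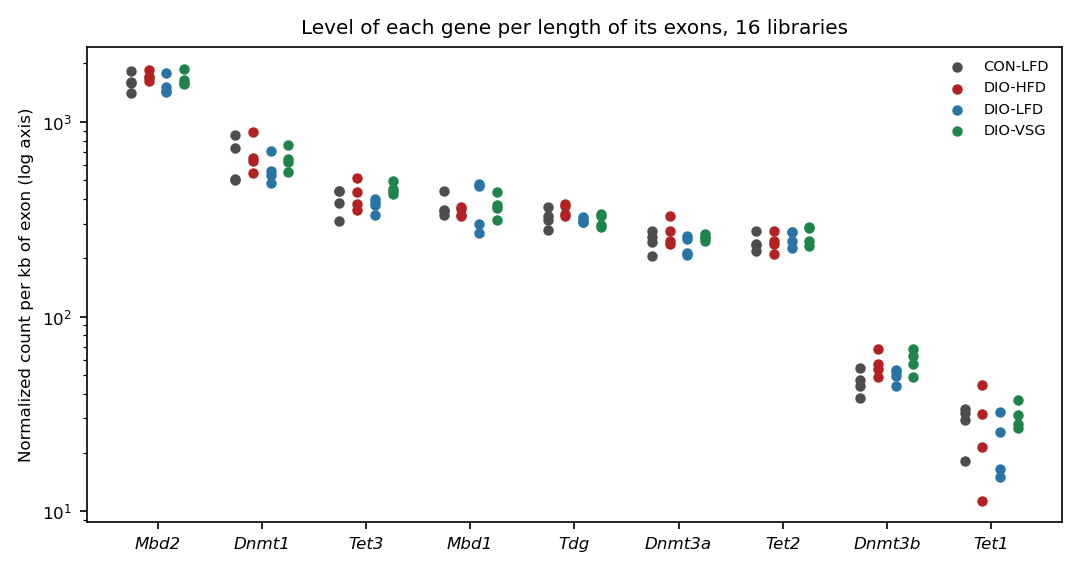
Normalized counts per kb of exon (log axis) of the 9 genes, ordered by mean level, with 1 point per library coloured by group. Mbd2 lies above all other genes in all 16 libraries, and Dnmt3b and Tet1 lie below the other 7.

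The spread over libraries also differed among the genes. Tet1 varied most, from 175 to 685 normalized counts, a 3.92-fold range with an SD of 0.53 on the log2 scale over 16 libraries. Tdg (SD 0.12), Mbd2 (SD 0.13) and Tet2 (SD 0.15) varied least, and their highest library was 1.36-, 1.33- and 1.38-fold above their lowest. DIO-HFD replicate 1 was the highest of all 16 libraries for Dnmt1, Dnmt3a, Tet1 and Tet3. The same library had the highest sum of B cell markers (162946) and the lowest sum of adipocyte markers (675987, against 991291 or more in the others). The part of either marker list in these levels was not tested.

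Dnmt1 (chr9:20907209-20959888, minus strand, GRCm38) encodes the maintenance enzyme. Its normalized counts were 6308, 3745, 5416 and 3717 in CON-LFD replicates 1 to 4, and 6515, 4009, 4633 and 4786 in DIO-HFD. They were 3570.3, 5201, 4130.1 and 3951 in DIO-LFD, and 4743, 5585, 4609 and 4085 in DIO-VSG. The groups overlapped in all 6 comparisons. In CON-LFD a pair of libraries (5416 and 6308) stood well above the other pair (3717 and 3745), and that spread within 1 group (SD 1283) was larger than any difference between group means.

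The de novo enzymes differed in level but not in their overlap between groups. Dnmt3a (chr12:3806007-3914443, plus strand) was at 3998, 3386, 4251 and 4585 normalized counts in CON-LFD, and at 5455, 3911, 4048 and 4551 in DIO-HFD. It was at 3460.0, 3514, 4158 and 4311 in DIO-LFD and within the narrow range of 4077 to 4424 in DIO-VSG. The coefficient of variation was 3.44% in DIO-VSG and between 11.3% and 15.6% in the other groups, a difference in spread that was not tested.

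Dnmt3b (chr2:153649450-153687730, plus strand) was at 241, 224, 278 and 194 normalized counts in CON-LFD, and at 346, 249, 273 and 290.1 in DIO-HFD. It was at 269.7, 266, 253 and 224 in DIO-LFD, and at 349.6, 318, 248 and 293 in DIO-VSG. The 2 highest values lay in DIO-VSG and DIO-HFD and the lowest in CON-LFD, but the highest CON-LFD library stood above the lowest library of every other group. Group means were 234 ± 34.9 in CON-LFD, 289 ± 41.3 in DIO-HFD, 253 ± 20.8 in DIO-LFD and 302 ± 42.8 in DIO-VSG (SD, n = 4).

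Of the erasers, Tet1 (chr10:62804570-62908996, minus strand) was at 519.8, 453, 494 and 280.4 normalized counts in CON-LFD, and at 685, 331, 175 and 490.0 in DIO-HFD. It was at 231, 255, 501 and 392 in DIO-LFD, and at 575, 480.3, 416 and 432 in DIO-VSG. Both its highest and its lowest library were DIO-HFD, where the coefficient of variation was 52.0%.

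Tet2 (chr3:133463679-133545139, minus strand) lay between 3534 and 4868 normalized counts, with group means of 4041 ± 411 in CON-LFD, 4061 ± 456 in DIO-HFD, 4263 ± 395 in DIO-LFD and 4411 ± 495 in DIO-VSG. Tet3 (chr6:83362373-83459084, minus strand) was at 6369.9, 5139, 7381 and 7373 in CON-LFD and at 8607, 5859.7, 6323 and 7259 in DIO-HFD. It was at 5534, 6233, 6508 and 6704 in DIO-LFD and at 8277, 7519, 7151 and 7351 in DIO-VSG. All 4 DIO-VSG libraries stood above all 4 DIO-LFD libraries for Tet3, while CON-LFD and DIO-HFD spanned both.

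Tdg (chr10:82629828-82650799, plus strand) was at 1972, 1501, 1756 and 1680.1 normalized counts in CON-LFD and at 1983, 1763, 2044 and 1798 in DIO-HFD. It was at 1639.9, 1642, 1712 and 1749 in DIO-LFD and at 1764, 1799, 1556 and 1594 in DIO-VSG. Every DIO-HFD library was above every DIO-LFD library for Tdg, the closest pair being 1763 and 1749. DIO-VSG overlapped with both groups.

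Among the readers, Mbd1 was at 2332, 2974, 2369 and 2241 normalized counts in CON-LFD and within 2189 to 2460.5 in DIO-HFD. It was at 3158, 3209.7, 2015 and 1796 in DIO-LFD and at 2518, 2934, 2420.2 and 2103 in DIO-VSG. DIO-LFD held both the highest and the lowest Mbd1 library. Mbd2 lay between 4534 and 6038, with group means of 5158 ± 542 in CON-LFD, 5526 ± 304 in DIO-HFD, 4957 ± 532 in DIO-LFD and 5356 ± 467 in DIO-VSG.

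**Figure D2:**
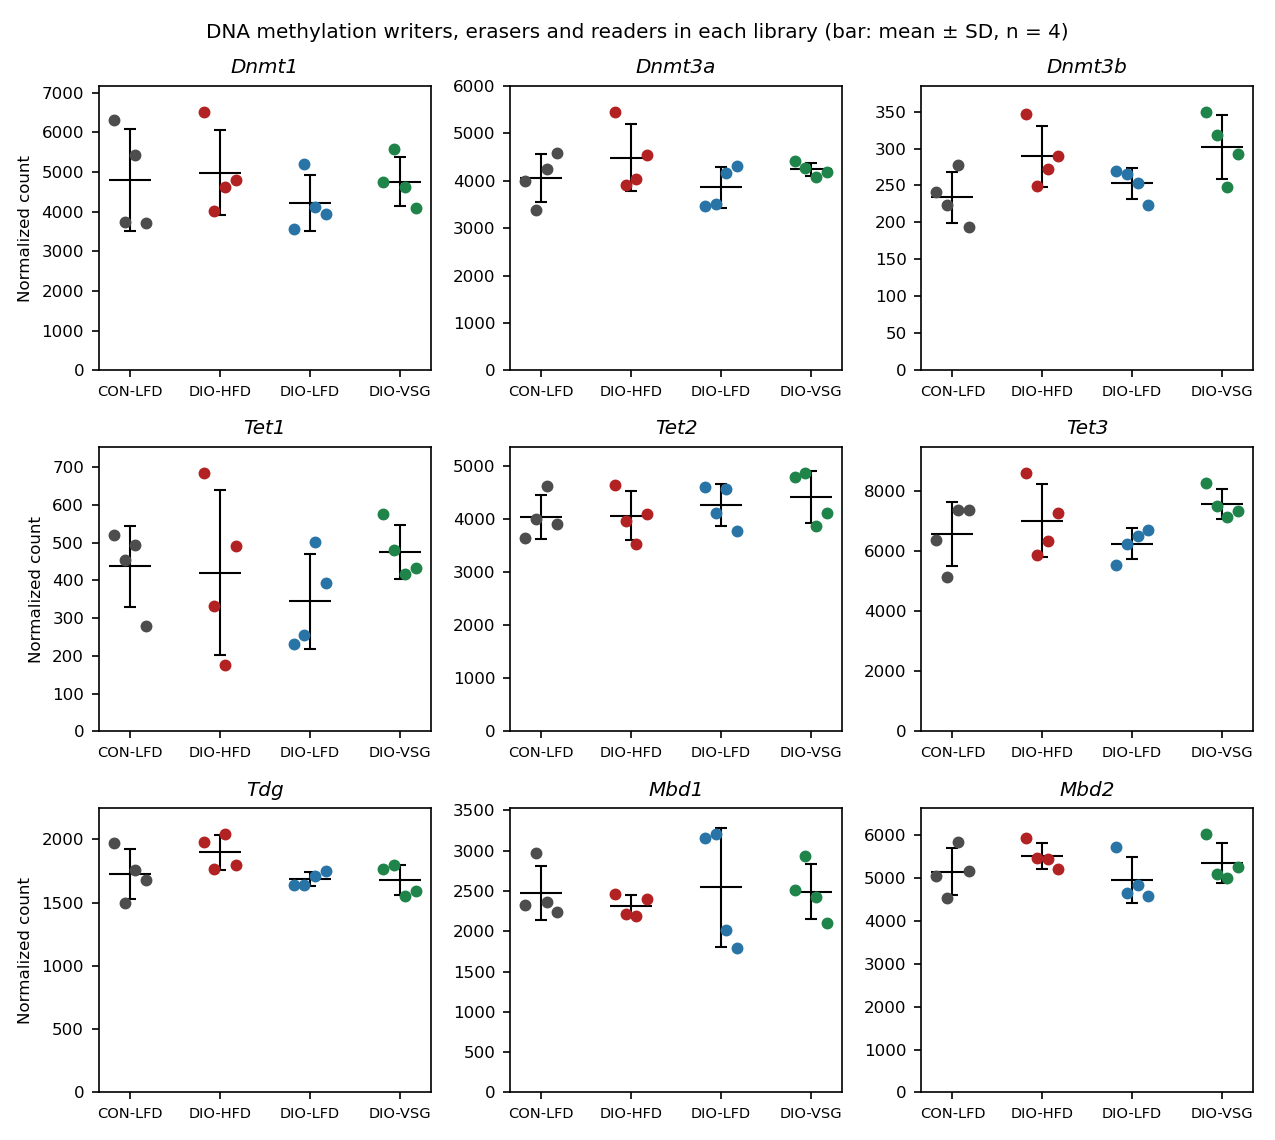
Normalized counts of the 9 genes in each library, 1 panel per gene with its own axis from 0, points in replicate order within each group and horizontal lines at the group mean with the SD (n = 4). The groups overlap in every panel except for Tet3 between DIO-LFD and DIO-VSG and Tdg between DIO-HFD and DIO-LFD.

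The second question was whether obesity or either way of losing weight changed these genes. DIO-HFD mice were still on the high-fat diet, while all other groups were on the low-fat diet. Comparisons with DIO-HFD therefore cannot tell the current diet apart from body weight, nor, for DIO-VSG, from surgery. With limma-trend fitted over all 16 libraries and 21218 genes, 0 of 9 members reached an adjusted P value below 0.05 in any of the 6 comparisons, and at an unadjusted P value below 0.05 there was 1 gene in 1 comparison. A voom fit of the recovered reads gave the same numbers of 0 and 1. The smallest adjusted P value of a member was 0.268. In this fit the adjusted threshold was reached by 0.0377% of all tested genes in DIO-HFD relative to CON-LFD, by 0.00471% in DIO-LFD relative to CON-LFD and by 0% in the other 4 comparisons. These shares of all genes depended on the libraries: without CON-LFD replicate 3 they were 4.11% in DIO-VSG and 0.603% in DIO-HFD, each relative to CON-LFD, with 0 of 9 members past the adjusted threshold. In the F test for any difference among the 4 groups, adjusted P values of the 9 genes lay between 0.416 and 0.954, and 0% of all genes passed the adjusted and 12.7% the unadjusted threshold. The lowest unadjusted P value in that F test was 0.0904, for Dnmt3b.

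In DIO-HFD relative to CON-LFD, the comparison for obesity, 0 of 9 genes passed the unadjusted threshold, against 12.9% of all genes, and 0 of 9 had groups that did not overlap, against 4.76%. Fold changes were positive for 7 genes and negative for 2, with a median of 0.09 on the log2 scale beside 0.02 over all genes. They ranged from -0.19 for Tet1 to 0.31 for Dnmt3b, and the interval for Dnmt3b was -0.01 to 0.62.

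In DIO-VSG relative to DIO-HFD, the comparison for surgical weight loss, again 0 of 9 genes passed the unadjusted threshold (13.2% of all genes) and 0 of 9 had separate groups (6.59%). The directions were mixed, with 5 positive and 4 negative fold changes and a median of 0.06 (0.02 over all genes). The values ran from -0.18 for Tdg (95% confidence interval -0.37 to 0.01) to 0.34 for Tet1 (-0.44 to 1.11). The Tet1 value was 0.63 without DIO-HFD replicate 1 and -0.03 without DIO-HFD replicate 3, and it was -0.30 without the 4 libraries lowest in B cell markers. In the same comparison all 21 B cell markers (median 2.62) and all 20 T cell markers (2.21) had higher means in DIO-VSG, with 0 past the unadjusted threshold. Means were lower for 14 of 15 macrophage markers (-0.64, 1 of 15 past it) and 19 of 20 cell cycle markers (-0.51, 0 of 20). They were higher for 11 of 13 mammary epithelium markers (0.28, 3 of 13). The part of these lists in the members' values was not tested.

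In DIO-LFD relative to DIO-HFD, the comparison for dietary weight loss, 0 of 9 genes passed the unadjusted threshold (8.53% of all genes). Tdg was the 1 gene of 9 with groups that did not overlap, against 4.51% of all genes. It was lower in DIO-LFD (1686 ± 54.0) than in DIO-HFD (1897 ± 138), with a log2 fold change of -0.17, SE 0.09, and a limma-trend P value of 0.0809 (adjusted 0.666). In the same comparison all 20 cell cycle markers had lower means in DIO-LFD (median log2 fold change -1.02, 7 of 20 past the unadjusted threshold), and 11 of 13 mammary epithelium markers had higher means (9 of 13 past it). Means were also higher for 14 of 15 adipocyte markers (median 0.45, 3 of 15 past it) and 12 of 12 skeletal muscle markers (1 of 12 past it). The summed muscle markers were 150496 in DIO-LFD replicate 4 and 2419 to 3693 in the other DIO-LFD replicates. Means were higher for 21 of 21 B cell markers (median 1.38) and 19 of 20 T cell markers (0.80), with 0 past it. They were lower for 12 of 15 macrophage markers (median -0.07, 1 of 15 past it). The part of these lists in the Tdg difference and in the other members' values was not tested. The fold change was negative for 7 genes and positive for Tet2 and Mbd1, with a median of -0.17 beside 0.01 over all genes. Both comparisons with DIO-HFD share its 4 libraries with the obesity comparison.

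Without the 4 libraries lowest in B cell markers, a set chosen after the marker levels were seen, DIO-HFD keeps replicates 1 and 4, and 4 genes passed the unadjusted threshold in DIO-LFD relative to DIO-HFD, all lower in DIO-LFD. Their log2 fold changes were -0.42 for Dnmt1, -0.37 for Dnmt3a, -0.82 for Tet1 and -0.34 for Tet3, with adjusted P values from limma of 0.154 to 0.194. In that fit 23.1% of all genes passed the same unadjusted threshold. These are the same 4 genes for which DIO-HFD replicate 1, now 1 of 2 libraries of its group, was the highest of all 16. The 12-library fit was not repeated without it. When the B cell score was added to the model, the 4 genes were Dnmt1 (-0.35), Dnmt3a (-0.27), Tet3 (-0.23) and Tdg (-0.19), against 16.1% of all genes.

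Between the 2 weight-loss groups, in DIO-VSG relative to DIO-LFD, 0 of 9 genes passed the unadjusted threshold (9.71% of all genes). Tet3 was the 1 gene with groups that did not overlap, but 18.8% of all genes had separate groups in this comparison. Tet3 was higher in DIO-VSG (7575 ± 492) than in DIO-LFD (6245 ± 511), with a log2 fold change of 0.28, SE 0.13, and a limma-trend P value of 0.0534 (adjusted 0.510). With the 8 libraries of these 2 groups fitted alone, the Tet3 difference had a P value of 0.00901 and an adjusted P value of 0.0796 in limma, and 25.3% of all genes passed the unadjusted threshold. Of the 9 genes, 8 had a positive fold change, with a median of 0.14 beside -0.02 over all genes. The summed B cell markers were 111711 to 129742 in DIO-VSG and 30718 to 68584 in DIO-LFD, without overlap, and those of T cells 50217 to 78819 and 15650 to 32406. All 15 adipocyte markers had lower means in DIO-VSG, with a median log2 fold change of -0.42 and 0 of 15 past the unadjusted threshold. All 20 cell cycle markers had higher means (median 0.36) and 12 of 13 mammary epithelium markers lower means (median -0.39), also with 0 past that threshold. Of the 15 macrophage markers, 13 had lower means (median -0.63), with 1 of 15 past it. The part of these lists in the Tet3 difference was not tested beyond a fit with the B cell score as covariate, in which the difference was 0.20 (adjusted P = 0.547 in limma).

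In DIO-VSG relative to CON-LFD, Dnmt3b was the 1 gene of 9 (11.1%) that passed the unadjusted threshold, against 17.8% of all genes. It was higher in DIO-VSG by 0.37 on the log2 scale (SE 0.15, 95% confidence interval 0.05 to 0.69), with a limma-trend P value of 0.0255 and an adjusted P value of 0.268. The groups overlapped, as 278 in CON-LFD replicate 3 exceeded 248 in DIO-VSG replicate 3, and 0 of 9 genes had separate groups in this comparison (7.02% of all genes). The summed B cell markers were 111711 to 129742 in DIO-VSG and 1272 to 126565 in CON-LFD. Of the B cell markers 19 of 21 (median log2 fold change 3.79) and of the T cell markers 17 of 20 (median 2.76) passed the unadjusted threshold, all higher in DIO-VSG, and 3 of 13 mammary epithelium markers passed it, all lower. All 15 adipocyte markers had lower means in DIO-VSG than in CON-LFD, with a median log2 fold change of -0.46 and 0 of 15 past the unadjusted threshold, and their part in the Dnmt3b difference was not tested. After adjustment for B cell score in limma, the Dnmt3b difference was 0.19 (adjusted P = 0.951), and without the 4 libraries lowest in B cell markers it was 0.21 (adjusted P = 0.798). The call at the unadjusted threshold was also lost on leaving out any one library among CON-LFD replicates 2 and 4 and DIO-VSG replicates 1 and 2, with log2 fold changes between 0.28 and 0.46 over all fits with 1 library left out.

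In DIO-LFD relative to CON-LFD, 0 of 9 genes passed the unadjusted threshold (6.26% of all genes) and 0 of 9 had separate groups (3.53%). The fold change was negative for 7 genes, with a median of -0.06 on the log2 scale (0.02 over all genes), and ranged from -0.37 for Tet1 to 0.12 for Dnmt3b.

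The intervals say how large a change remained possible. For Tdg the 95% confidence intervals of all 6 comparisons lay within -0.37 to 0.33 on the log2 scale, for Mbd2 within -0.37 to 0.32 and for Tet2 within -0.23 to 0.36. For Dnmt1 they reached from -0.64 to 0.59, for Dnmt3a from -0.47 to 0.40 and for Dnmt3b from -0.50 to 0.69. Tet1, the gene with the widest spread over libraries, had intervals from -1.15 to 1.30, and in 3 of the 6 comparisons its interval held a 2-fold change as well as no change.

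**Figure D3:**
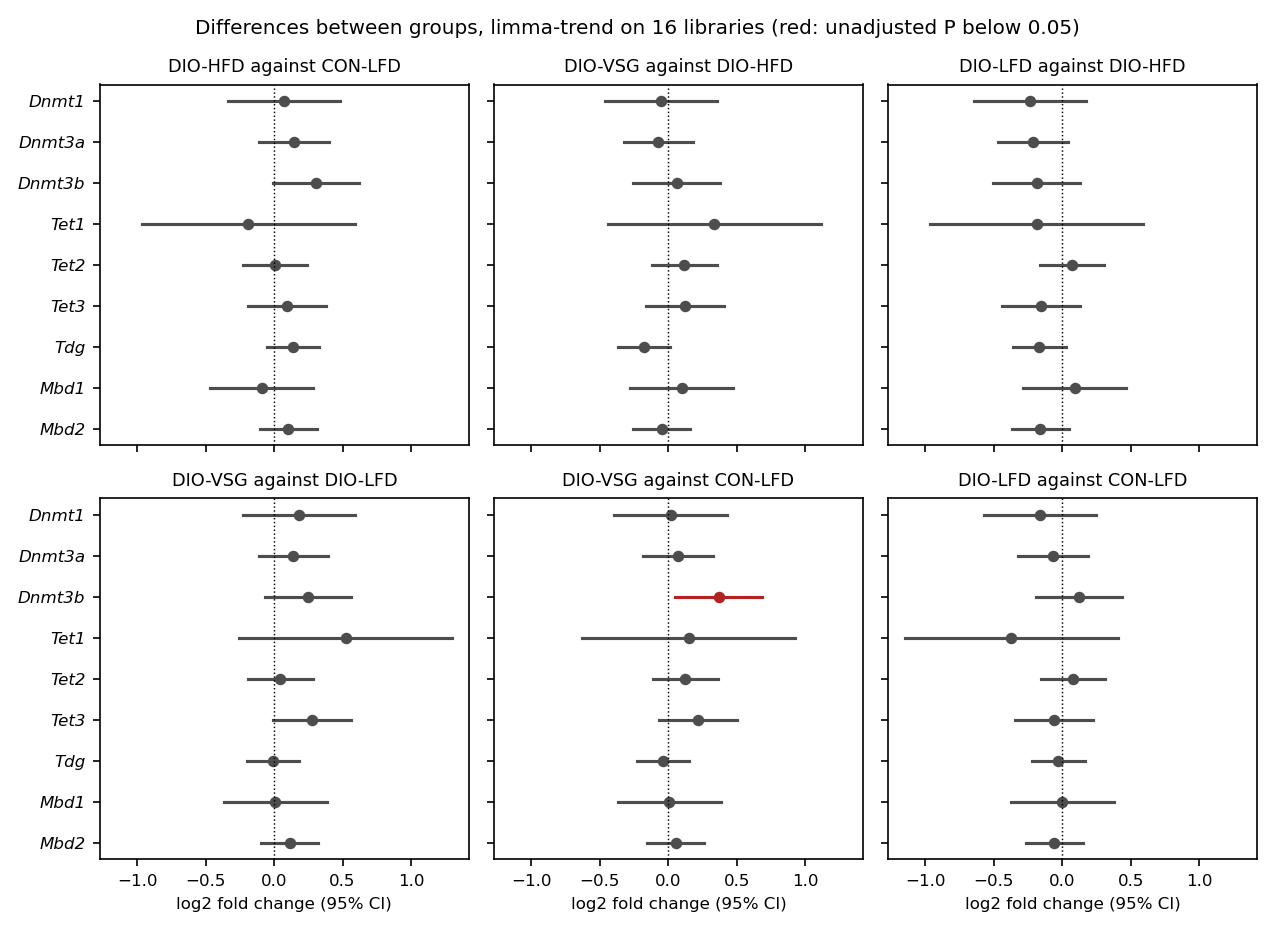
Log2 fold changes of the 9 genes in the 6 comparisons between groups, with 95% confidence intervals from limma-trend; the first group named is compared with the second, and the dotted line marks no change. Only the interval of Dnmt3b in DIO-VSG relative to CON-LFD (0.05 to 0.69) leaves 0 out, and its adjusted P value was 0.268.

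The 9 genes were next set beside lists of marker genes. Each list was scored per library by centring the log2 values of every gene on the average of the 16 libraries and averaging the genes. Scores of B cell, T cell and muscle markers fell into separate clusters of libraries and were not correlated. For cell cycle, adipocyte, macrophage and mammary epithelium markers, 36 relations were computed over 16 libraries with two-sided permutation tests and adjusted together.

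Dnmt1 followed the 20 cell cycle markers, which include Mki67, Top2a and the Mcm genes (Pearson r = 0.82, permutation P = 0.00011, adjusted 0.00396; Spearman rho = 0.81, permutation P = 0.00023, adjusted 0.00594). Leaving out the 2 libraries farthest from the median score gave r = 0.87, and r within groups was 0.82. The libraries with the highest cell cycle scores were CON-LFD replicate 1 (1.19), DIO-HFD replicate 3 (0.98) and DIO-HFD replicate 1 (0.76). Dnmt1 was at 6308 and 6515 normalized counts in the first and the third, but at 4633 in DIO-HFD replicate 3. Tdg was related to the same list (r = 0.74, permutation P = 0.00146, adjusted 0.0105; rho = 0.71, permutation P = 0.00321, adjusted 0.0193), with r = 0.72 within groups and 0.55 without the 2 farthest libraries. The other 7 genes had r between -0.16 and 0.33 with the cell cycle score and adjusted permutation P values of 0.417 or more.

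With the 15 adipocyte markers, 4 of the 9 genes had a negative relation that passed for both r and rho. Dnmt1 (r = -0.75, rho = -0.80), Dnmt3b (r = -0.75, rho = -0.64), Tet3 (r = -0.73, rho = -0.72) and Tet1 (r = -0.67, rho = -0.65) had adjusted permutation P values of 0.0096, 0.0096, 0.00999 and 0.0235 for r, and of 0.00594, 0.0406, 0.0193 and 0.0406 for rho. Without the 2 farthest libraries, which included DIO-HFD replicate 1, r was -0.58, -0.77, -0.58 and -0.53. Within groups it was -0.78, -0.66, -0.66 and -0.73. Dnmt3a had r = -0.65 (adjusted permutation P = 0.0302) and rho = -0.49 (adjusted 0.162), but r fell to -0.25 without the 2 farthest libraries, so its relation rested on them. Mbd1 (r = -0.08), Mbd2 (r = -0.34) and Tdg (r = -0.31) had adjusted permutation P values between 0.417 and 0.818, and Tet2 (r = -0.55) had 0.0693. The lowest adipocyte scores were in DIO-HFD replicate 1 (-1.15), DIO-VSG replicate 2 (-0.55) and CON-LFD replicate 3 (-0.28). Their B cell scores were 2.17, 1.69 and 1.80. DIO-LFD replicate 1, with the highest adipocyte score (0.56), had a B cell score of -0.19. The part of lymphocyte markers in these relations was not tested.

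With the 13 mammary epithelium markers, Mbd2 had r = -0.71 (adjusted permutation P = 0.011) and rho = -0.71 (adjusted 0.0193), with r = -0.56 without the 2 farthest libraries and -0.63 within groups. Dnmt3a (r = -0.66) and Tdg (r = -0.62) passed the adjusted threshold for r (0.0275 and 0.0392) but not for rho (0.0778 and 0.0849). For Dnmt3b it was rho (-0.76, adjusted 0.0101) and not r (-0.56, adjusted 0.0693) that passed. With macrophage markers, adjusted permutation P values were 0.417 or more for all 9 genes. All counts of a library share its scaling, so these relations are between shares of the RNA of each tissue piece.

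**Figure D4:**
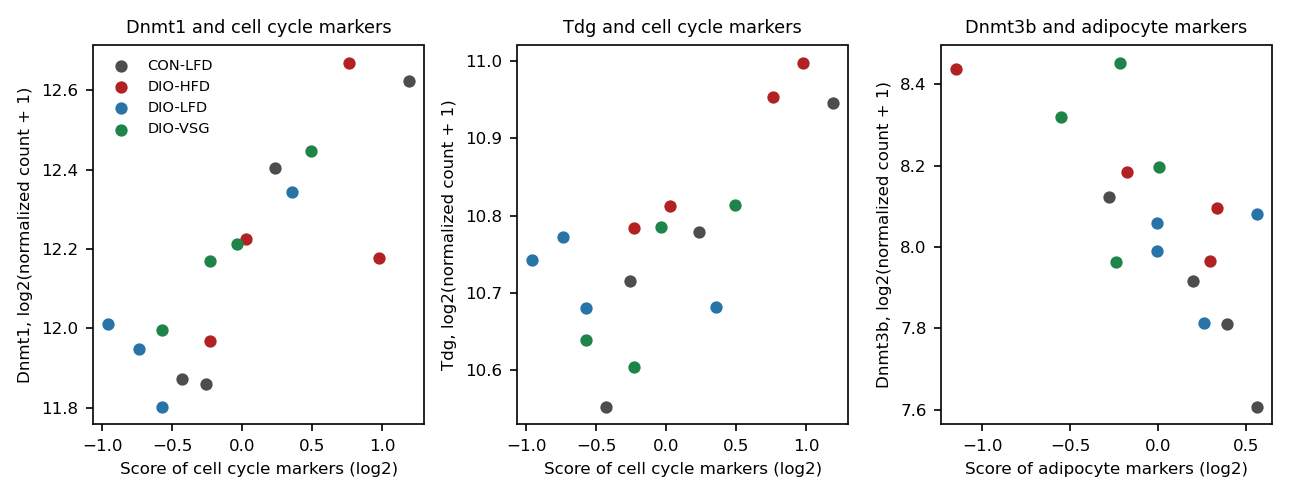
Log2(normalized count + 1) of Dnmt1 and Tdg against the score of cell cycle markers, and of Dnmt3b against the score of adipocyte markers, 1 point per library (16 libraries) coloured by group. Dnmt1 (r = 0.82) and Tdg (r = 0.74) rise with the cell cycle score, and Dnmt3b (r = -0.75) falls with the adipocyte score, on which the DIO-VSG libraries (-0.55 to 0.01) lie mostly below those of DIO-LFD (-0.01 to 0.56).

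The genes most like each member were found by Pearson's r of log2 values over the 16 libraries, among all tested genes, as a description. For Dnmt1 they were Lmnb1, which encodes lamin B1 (r = 0.97), the thymidine kinase gene Tk1 (r = 0.94) and 4930427A07Rik (r = 0.94). For Dnmt3a they were Galnt10, a mucin-type glycosyltransferase gene (r = 0.93), Gng10 (r = 0.91) and Mex3b (r = 0.89). For Dnmt3b they included Utp15 (r = 0.93) and Isg20l2 (r = 0.92), both genes of ribosomal RNA processing.

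For the erasers, the nearest genes were Krba1, Gm43378 and Gm19569 for Tet1 (r = 0.90 to 0.91, the Gm genes at no more than 34.2 normalized counts), and Gm43660, Usb1 and Xab2 for Tet2 (r = 0.86 to 0.89). Tet3 was most like Ikbke, a kinase gene of innate immune signalling (r = 0.97), Gab3 (r = 0.97) and Gng10 (r = 0.95). Tdg was most like the nucleoporin gene Nup62 (r = 0.90), the centromere protein gene Cenpc1 (r = 0.88) and the RecQ helicase gene Blm (r = 0.87).

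For the readers, Mbd1 was most like Fkbp5, a glucocorticoid-induced cochaperone gene (r = 0.89), Fam107a (r = 0.89) and Gm11730 (r = 0.88). Fkbp5 ranged from 1520.1 to 27642 normalized counts over the libraries while Mbd1 ranged from 1796 to 3209.7. Mbd2 was most like Gtdc1 (r = 0.93), Ncoa7 (r = 0.90) and the pseudogene Eif3s6-ps2 (r = 0.89).

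Among the members themselves, the closest pair of the 36 was the writer Dnmt3a and the eraser Tet3 (r = 0.88, and 0.94 within groups), which shared Gng10 as a near neighbour. Dnmt3b and Tet2 followed (r = 0.65), then Dnmt1 and Tdg (r = 0.62) and Dnmt3b and Mbd2 (r = 0.62). For Mbd1, r ranged from -0.48 with Dnmt3a to 0.38 with Tet2. The de novo enzymes Dnmt3a and Dnmt3b had r = 0.38.

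The promoters of 7 of the 9 genes could be read from RefSeq (GRCm38.p6), in windows of 300 bases from 250 before to 50 after an annotated start. They show the CpG content of the genes that themselves act on CpG, and they are printed for Dnmt1, the gene related to the cell cycle list, for Dnmt3b, the gene past the unadjusted threshold, and for Tet1, the most variable gene. CpG dinucleotides are in capitals, and the sequences run 5′ to 3′ on the strand of the gene. They lie at chr9:20952574-20952873 (minus), chr2:153649199-153649498 (plus) and chr10:62887275-62887574 (minus).
Dnmt1: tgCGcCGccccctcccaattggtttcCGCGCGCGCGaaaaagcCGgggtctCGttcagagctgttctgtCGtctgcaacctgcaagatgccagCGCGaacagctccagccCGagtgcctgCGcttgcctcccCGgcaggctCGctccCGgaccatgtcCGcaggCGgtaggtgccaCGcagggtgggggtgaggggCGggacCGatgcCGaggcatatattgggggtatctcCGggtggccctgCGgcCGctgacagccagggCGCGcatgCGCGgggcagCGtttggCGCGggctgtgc
Dnmt3b: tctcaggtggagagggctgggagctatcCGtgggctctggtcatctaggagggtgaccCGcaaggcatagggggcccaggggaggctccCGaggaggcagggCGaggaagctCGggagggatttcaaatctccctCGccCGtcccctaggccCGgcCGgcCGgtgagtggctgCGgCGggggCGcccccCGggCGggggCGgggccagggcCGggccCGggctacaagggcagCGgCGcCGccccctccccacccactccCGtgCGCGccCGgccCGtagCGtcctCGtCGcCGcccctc
Tet1: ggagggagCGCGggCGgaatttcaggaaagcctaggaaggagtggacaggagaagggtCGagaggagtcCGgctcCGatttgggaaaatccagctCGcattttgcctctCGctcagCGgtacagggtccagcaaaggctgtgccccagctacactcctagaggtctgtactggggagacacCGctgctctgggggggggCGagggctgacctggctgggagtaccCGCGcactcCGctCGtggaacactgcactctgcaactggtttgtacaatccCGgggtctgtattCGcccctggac

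This Dnmt1 window held 33 CpG, that of Dnmt3b 30 and that of Tet1 17, against a median of 7 over all 32851 promoters of the table. Counting a promoter as CpG rich at a GC content above 50% and an observed-to-expected CpG ratio above 0.6, 33.3% of all promoters were CpG rich, and so were 7 of the 11 promoters of the 7 matched members. Tet3 was the 1 matched gene with none, with 22 CpG, a GC content of 71.3% and a ratio of 0.58. Dnmt1 had 3 annotated starts, and the window printed and searched below was chosen as the one with the most CpG. The windows at its other starts held 2 and 12 CpG and were not CpG rich. Tet2 had 57 CpG in its window, the highest number among the members.

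Since Dnmt1 followed cell cycle genes, promoters were searched on both strands for the letters of E2F-type sites, TTTCGCGC, TTTGGCGC, TTTCCCGC and TTTGCCGC. One or more of them occurred in 2.26% of all promoters and in 1 of the 11 promoters of the members, that of Dnmt1 printed above. The window held GCGCGAAA, the reverse complement of TTTCGCGC, and TTTGGCGC, which are in capitals in the stretches below, at chr9:20952819-20952858 and chr9:20952574-20952606 on the minus strand. These letters describe the window and are not evidence of binding.
Dnmt1, upstream stretch: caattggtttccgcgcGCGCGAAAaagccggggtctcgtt
Dnmt1, downstream stretch: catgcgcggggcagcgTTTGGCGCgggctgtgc

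The other genes of the pathway were taken from 5 lists with 68 genes, of which 66 were in the table and 65 were tested. None of the 65 passed the adjusted threshold of limma-trend in any comparison (0 of 65). At the unadjusted threshold the number was 9 in DIO-HFD relative to CON-LFD (13.8%, beside 12.9% of all genes), 2 for DIO-VSG relative to DIO-HFD (3.08% beside 13.2%) and 10 for DIO-LFD relative to DIO-HFD (15.4% beside 8.53%). It was 5 in DIO-VSG relative to DIO-LFD (7.69% beside 9.71%), 8 in DIO-VSG relative to CON-LFD (12.3% beside 17.8%) and 7 in DIO-LFD relative to CON-LFD (10.8% beside 6.26%). Values given for single genes of these lists are log2 fold changes.

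Among the 8 tested partners of the methyltransferases, Uhrf1, which brings Dnmt1 to hemimethylated DNA, had a log2 fold change of -1.15 (SE 0.47, adjusted P = 0.528 in limma) in DIO-LFD relative to DIO-HFD. The chromatin remodeler gene Hells had -0.94 there and -0.80 in DIO-LFD relative to CON-LFD (adjusted P values of 0.511 and 0.791). In the other 4 comparisons 0 of these 8 genes passed the unadjusted threshold. All 20 cell cycle markers had lower means in DIO-LFD in both comparisons, with medians of -1.02 relative to DIO-HFD and -0.65 relative to CON-LFD (3 of 20 past the unadjusted threshold in the latter). Their part in the values of Uhrf1, Hells and Neil3 was not tested. Of the 8 other readers, only Zbtb33, the gene of Kaiso, passed the unadjusted threshold anywhere, at 0.31 in DIO-VSG relative to DIO-LFD (adjusted P = 0.509 in limma).

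Of the 20 other demethylation and base excision repair genes, Polb, the repair polymerase, was -0.30 on the log2 scale in DIO-HFD relative to CON-LFD, and 0.28 and 0.26 when DIO-VSG and DIO-LFD were each compared with DIO-HFD, with adjusted P values from limma of 0.251, 0.306 and 0.491. These 3 comparisons share the DIO-HFD libraries. The glycosylase gene Neil3 was -1.07 in DIO-LFD relative to DIO-HFD and -1.58 relative to CON-LFD, and Gadd45g was 1.25 and 1.26 in the same comparisons, all with adjusted P values of 0.456 or more. Gadd45b was 0.66 in DIO-HFD relative to CON-LFD, while its value for DIO-LFD relative to DIO-HFD was -0.58.

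Of the 17 tested genes of methyl donor metabolism, which supply S-adenosylmethionine, Mat1a was 2.19 in DIO-LFD relative to DIO-HFD and -1.97 in DIO-VSG relative to DIO-LFD (adjusted P values of 0.394 and 0.509). It was a low gene, at 5.03 ± 2.81 normalized counts in DIO-HFD, 5.33 ± 1.40 in DIO-VSG and 31.1 ± 27.8 in DIO-LFD (SD, n = 4). Cbs, which opens the route from homocysteine to cysteine, was -0.93 and -1.05 in DIO-VSG relative to DIO-LFD and to CON-LFD, and Nnmt, a methyltransferase that consumes S-adenosylmethionine, was -0.79 and -0.88 (adjusted P values of 0.268 to 0.509). In the 12 genes of the NuRD complex, between 0 and 2 passed the unadjusted threshold per comparison, the largest value being 0.50 for Chd3 in DIO-VSG relative to DIO-LFD (adjusted P = 0.509 in limma).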

How the data were processed

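RNA-Seq libraries of 16 mice were prepared by the authors from total RNA with a stranded kit. The methods of the study name STAR and salmon with a Gencode annotation, whereas the submitters' processing notes name TopHat2 2.0.7, HTSeq 0.5.3p9 and DESeq2 on mm10, so the counting tool is not certain. The deposited values were described as normalized counts but were on a log2 scale (5.36 to 21.85), made by the authors with a variance-stabilizing transformation. Inverting it gave normalized counts, and dividing by each library's step gave whole reads for 100.0% of values (within 0.1 reads) and size factors of 0.9036 to 1.2204. Columns were matched to samples by animal number.

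The limma-trend method (R 4.3.3, limma 3.58.1) was applied to log2(normalized count + 1), which understates changes of low genes. All 16 libraries entered 1 model whose sole term was group. A gene was tested if 4 or more libraries had 10 or more normalized counts (21218 genes), two-sided, with Benjamini-Hochberg adjustment within each comparison and a threshold of 0.05. The design assumed normalized counts, which the inversion supplied. The script was tested on simulated data. Correlations used 100000 permutations. Gene positions and exon lengths came from GENCODE M21 on GRCm38.

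The members and lists were chosen with earlier results of these data known. Of the members, those with an unadjusted P value below 0.05 or with groups that did not overlap were given with fold change and P value, and the others by their values and ranges. For each member the 3 tested genes with the highest r were named, and genes of the pathway lists with an unadjusted P value below 0.05 could be named. Of the genes under these rules, 2 are not reported here. The chi-square per gene between replicates of a group was 64.4 or more, so none was counted as a repeat, and mice differed by far more than counting error. Methylation measurements were not analysed here.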

Additional observations from a re-analysis of the deposited data

How the results depend on the processing

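In 27 alternatives to the reported fit, 0 of 9 genes passed the adjusted threshold, and the smallest adjusted P value of a member was 0.0696 (Dnmt3b in DIO-HFD relative to CON-LFD, limma with library weights). The directions of Dnmt3b in DIO-VSG relative to CON-LFD, Tet3 in DIO-VSG relative to DIO-LFD and Tdg in DIO-LFD relative to DIO-HFD were kept in all of them, with Tdg at -0.09 under library weights. What moved was the number of members past an unadjusted P value of 0.05. With library weights it was 2 in DIO-HFD relative to CON-LFD, 2 in DIO-LFD relative to DIO-HFD, 1 in DIO-VSG relative to DIO-LFD and 2 in DIO-VSG relative to CON-LFD, while 37.5%, 26.4%, 25.9% and 37.4% of all genes passed. With these weights the share of all genes past the adjusted threshold was 19.8% in the first of these comparisons and 17.6% in DIO-VSG relative to DIO-HFD, against 0.0377% and 0% without them, and with the 8 libraries alone it was 7.22% in DIO-VSG relative to DIO-LFD. When the B cell score was added to the model it was 4 in DIO-LFD relative to DIO-HFD, 1 in DIO-VSG relative to DIO-HFD, 2 in DIO-LFD relative to CON-LFD and 0 in DIO-VSG relative to CON-LFD, while 16.1%, 10.4%, 13.1% and 5.02% of all genes passed. Without the 4 libraries lowest in B cell markers, an alternative chosen after seeing the data, it was 4 in DIO-LFD relative to DIO-HFD, 1 in DIO-VSG relative to DIO-LFD, 1 in DIO-LFD relative to CON-LFD and 0 in DIO-VSG relative to CON-LFD, while 23.1%, 21.7%, 8.16% and 5.12% of all genes passed. Quantile normalization, and the 8 libraries alone, gave 1 (Tet3) in DIO-VSG relative to DIO-LFD (10.5% and 25.3% of all genes), and the 8 libraries alone gave 0 in DIO-VSG relative to CON-LFD (20.7% of all genes). Leaving out each library in turn gave 0 to 1 in every comparison except DIO-LFD relative to CON-LFD, where it was 0. The lowest share of all genes in these fits was 3.96%, in DIO-LFD relative to CON-LFD without CON-LFD replicate 1. The highest was 30.5%, in DIO-VSG relative to CON-LFD without CON-LFD replicate 3. The causes of these shifts were not tested.

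The replicate numbers did not pair the samples: of 24 same-number pairs between groups, 9 had correlated deviations over 0.1 (range -0.609 to 0.534), and 1 library matched its own number best throughout. With the number as a replicate block, 1 member passed the unadjusted threshold in DIO-VSG relative to CON-LFD (Dnmt3b, 0.37) and 0 in the other comparisons, as without the block. In that fit 16% of all genes passed it in DIO-VSG relative to CON-LFD, and 5.77% to 12% in the other comparisons.

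Groups of 4 mice, tissue of mixed cell types and the split of libraries by lymphocyte markers limit these results, and protein, enzyme activity and methylation itself were not analysed here.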
